A study of Arabidopsis thaliana with 6 samples.

Results

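The 9 genes described here encode the machinery by which a plant cell perceives gibberellin (GA), the hormone that drives seed germination and cell expansion. They were taken by locus identifier from the table of 30509 genes, and all 9 were found there. They are the 5 DELLA genes GAI (AT1G14920), RGA (AT2G01570), RGL1 (AT1G66350), RGL2 (AT3G03450) and RGL3 (AT5G17490), the 3 receptor genes GID1A (AT3G05120), GID1B (AT3G63010) and GID1C (AT5G27320), and the F-box gene SLY1 (AT4G24210). The RefSeq annotation of TAIR10.1 gives the same symbols to these loci, with RGA listed as RGA1.

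DELLA proteins are nuclear regulators of the GRAS family that hold back germination and growth. GA binds a GID1 receptor in the nucleus, the loaded receptor grips the DELLA protein, and SLY1, the F-box subunit of an SCF ubiquitin ligase, marks the DELLA protein for destruction. RGL2 is the DELLA protein best known for blocking germination in Arabidopsis, GAI and RGA are best known for restraining stem growth, and RGL3 is linked to stress and jasmonate responses. The amount of these proteins is set largely by their breakdown, and the arrays measured RNA only.

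RNA was compared between 2 groups of seeds of the Arabidopsis accession Col-0, all kept moist at 4 °C for 72 h and then germinated at 22 °C in continuous white light. Desiccation-sensitive (DS) germinated seeds were collected at radicle protrusion and used untreated. Desiccation-tolerant (DT) seeds of that stage were then kept for 3 d at 22 °C in the dark in polyethylene glycol (PEG), which draws water out osmotically, at -2.5 MPa, and rinsed. There were 3 biological replicates of each group, each a pool of many germinated seeds, and each was hybridized to an array of its own (6 arrays). Because darkness, the extra 3 d and PEG came together, their parts in any difference cannot be told apart. Whole seeds were extracted, so fewer cells of a type and less RNA per cell cannot be told apart either.

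The values are log2 signals from the Affymetrix Arabidopsis SNPtile array, 1 per gene and array, so that a difference of 1 is a doubling. The array medians lay between 4.72 and 4.78, and arrays correlated at 0.957 or more within a group and at 0.798 to 0.819 between groups. The level below which 95% of the 3629 annotated pseudogenes had their mean signal, 4.96, served as a gauge of background. Of the marker genes looked up, the 3 for reserve use after germination (ICL, MLS and PCK1) lay above that level in both groups, and of the 6 for embryo and root tip 3 did, while PLT1, PLT2 and WOX5 did not. Both markers of the micropylar endosperm were higher in DT, EXPA2 by 0.54 and MAN7 by 1.21, and their summed log2 signal was 12.3 to 12.6 in DS and 13.7 to 14.6 in DT. The summed signal of the 6 embryo and root tip markers was 31.6 to 31.8 in DS and 30.1 to 30.4 in DT, and PDF1 of the epidermis fell by 0.86. PDF1 was the only 1 of these 6 with an adjusted limma p of at most 0.05. EXPA2 lost its call without DS replicate 2, DS replicate 3, DT replicate 2 or DT replicate 3 (adjusted p = 0.0507 to 0.0532 from limma). It also lost its call when the variance was not moderated across genes (adjusted p = 0.108 from that linear model). The 3 seed maturation genes rose, CRA1 by 4.20, OLEO1 by 3.675 and EM1 by 2.998, with a summed signal of 14.8 to 15.4 in DS and 25.7 to 26.2 in DT. The part of these shifts in the results below was not tested.

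Of the 9 genes, 5 rose in DT, 3 fell and RGA did not pass the test. The test was limma, a linear model fitted to every gene with a variance moderated across genes, and a gene passed at a Benjamini-Hochberg adjusted p of at most 0.05 over all 30509 genes. Of all genes 29.9% passed, 9.97% higher and 19.9% lower in DT. Of the 10641 genes with a mean signal above the pseudogene level 59.2% passed, and of the 9 genes here 6 lay above that level and 5 of those 6 passed. The other 3, RGL1, GID1B and GID1C, lay below it and passed. In 8 of the 9 genes the values of the groups did not overlap, against 42.4% of all genes. None of the 9 met the study's filter of a log2 difference of at least 1 with an unadjusted p of at most 0.05, which 2.22% of all genes met; at an unadjusted limma p of at most 0.05 alone, 5 were higher and 3 lower. The median difference over the 9 genes was 0.30, against -0.02 over all genes. When arrays were centred or quantile normalization was repeated, the genes called higher and lower in the whole table went from 3043 and 6085 to 4052 and 5226 or to 4484 and 5026, while the 5 rises and 3 falls kept their number.

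**Figure D1:**
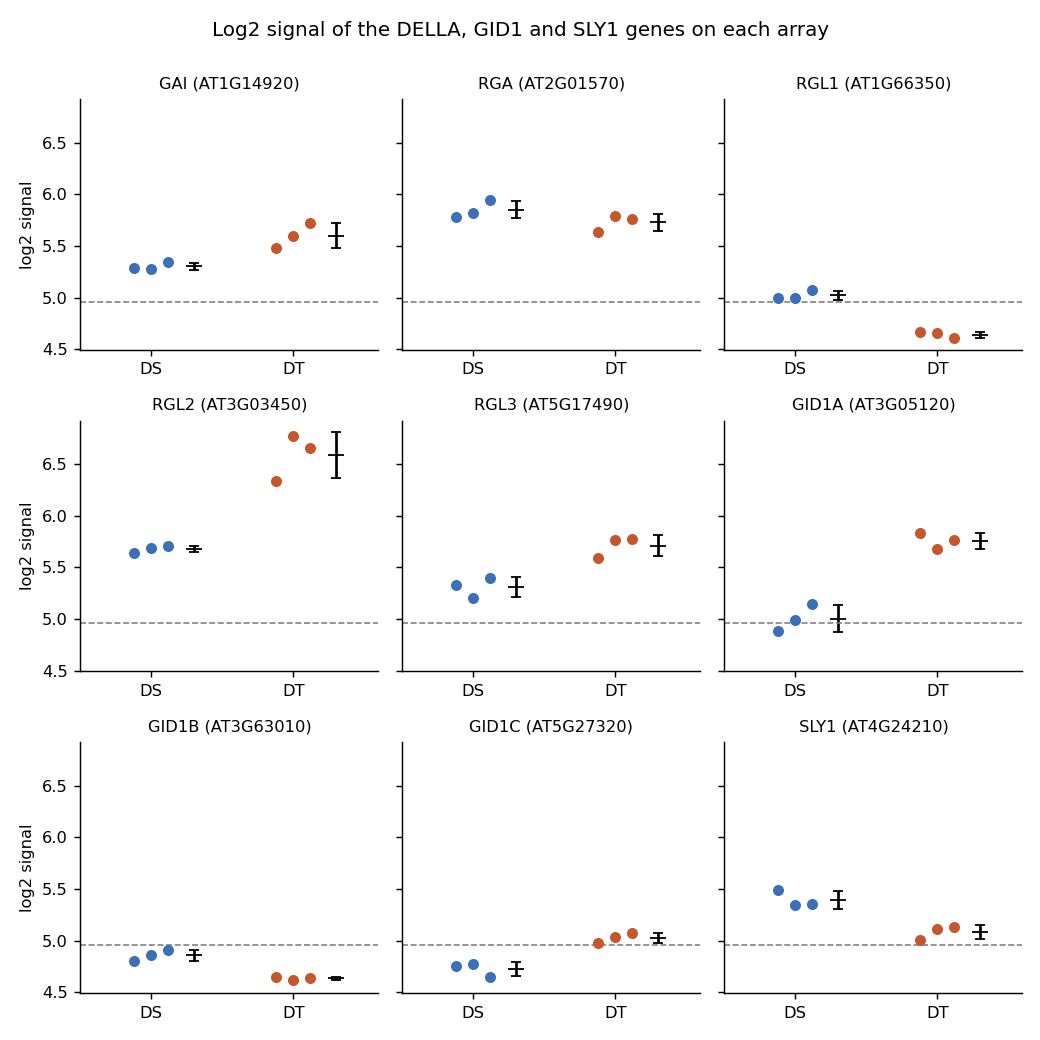
Log2 signal (vertical axis) of the 9 genes on each array, with the 3 DS arrays in blue, the 3 DT arrays in orange and the mean with SD as black bars beside them; the dashed line marks 4.96, below which 95% of pseudogenes had their mean. The RGL2 and GID1A points of DT stand clear above those of DS, RGL1, GID1B and SLY1 move the other way, and the RGA points overlap.

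RGL2, the DELLA gene tied most closely to germination, had the largest change of the 9. It lies on chromosome 3 from 819337 to 821652 on the minus strand and has 1 exon and no intron, as have the other DELLA genes. The DS arrays gave log2 signals of 5.64, 5.69 and 5.70, and the DT arrays gave 6.34, 6.77 and 6.65. Every DT array was above every DS array, and the spread was wider in DT, with DT replicate 1 the lowest of the 3. The mean went from 5.68 ± 0.03 to 6.59 ± 0.22 (SD, n = 3), a rise of 0.91 with a standard error of 0.102 or 1.88-fold (adjusted p = 0.000321 from limma). Its 95% interval ran from 0.67 to 1.15. Among the 30509 genes this was the 318th highest difference. Without DT replicate 1 the rise was 1.03, which met the filter of a log2 difference of 1, as did 1.02 after a repeated quantile normalization.

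RGL3 rose by less. This gene, on chromosome 5 from 5763989 to 5766246, had log2 signals of 5.33, 5.21 and 5.39 in DS and 5.59, 5.77 and 5.77 in DT. The groups did not overlap, and the mean rose by 0.40 with a standard error of 0.071, or 1.32-fold (adjusted p = 0.00353 from limma).

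GAI, on chromosome 1 from 5148982 to 5151415, gave log2 signals of 5.29, 5.28 and 5.34 in DS, against 5.48, 5.60 and 5.72 in DT. The 3 DS arrays lay close together and the DT arrays were all higher and more spread. The rise was 0.30 (standard error 0.067), or 1.23-fold, and limma gave an adjusted p of 0.0111. It no longer passed when the variance was not moderated across genes (adjusted p = 0.0601 from that linear model).

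RGA, the nearest relative of GAI, gave a different picture. On chromosome 2 from 255247 to 257568, it had log2 signals of 5.78, 5.82 and 5.95 in DS and 5.63, 5.79 and 5.76 in DT. The groups overlapped, since DT replicate 2 was above DS replicate 1. The difference was -0.12 with a 95% interval from -0.27 to 0.03 (adjusted p = 0.209 from limma), and it shrank to -0.003 after a repeated quantile normalization. The interval holds 0 and also a fall as large as that of GID1B.

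RGL1 was the DELLA gene that fell. It lies on chromosome 1 from 24748105 to 24750186. Its log2 signal was 4.997, 4.992 and 5.073 in DS, just above the pseudogene level, and 4.662, 4.652 and 4.604 in DT, below that level on all 3 arrays. RGL1 fell by 0.38 (standard error 0.047), so that DS was 1.30-fold above DT, and limma gave an adjusted p of 0.000522. A difference that ends under the background level can understate a larger one.

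**Figure D2:**
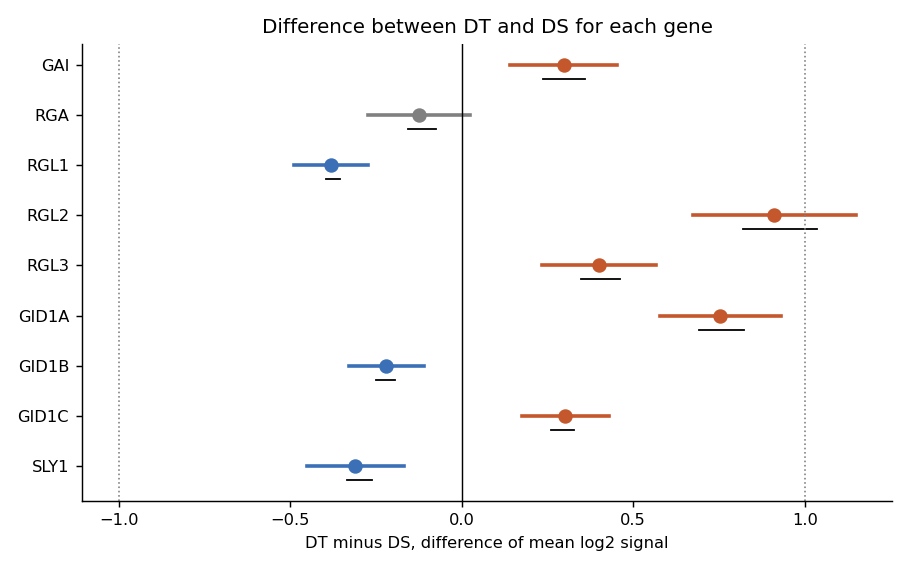
Difference between the DT and DS means in log2 signal (horizontal axis) for each of the 9 genes, with its 95% interval from limma as a thick line; orange marks genes that rose, blue genes that fell and grey RGA, which did not pass. The thin black line under each gene spans the differences with each array left out in turn, and the dotted lines at -1 and 1 mark the 2-fold filter. RGL2 at 0.91 and GID1A at 0.75 lie farthest from 0.

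The DELLA genes did not all move in the same direction, and the differences between them were tested pair by pair. For each array the log2 signal of one gene was subtracted from that of the other, and the 3 DT values were compared with the 3 DS values by a two-sided exact permutation test, which with 3 against 3 cannot give a p below 0.1. In 9 of the 10 DELLA pairs the DT and DS values did not overlap and the exact p was that smallest value, 0.1 (0.108 after adjustment over 13 pairs). Among all single genes 42.4% did not overlap. The share among all pairs of genes was not worked out, so this count is a description. RGL2 had the higher value in each of its pairs. Its change less that of RGL3 was 0.51 with a standard error of 0.094, and the change of GAI less that of RGL2 was -0.61 with a standard error of 0.095. For RGA less RGL2 the value was -1.03, and for RGL1 less RGL2 it was -1.29. For GAI less RGA, the closest relatives, the value was 0.42 with a standard error of 0.055. GAI and RGL3 were the pair whose values overlapped, with a difference of -0.10 ± 0.053 (standard error) and an exact p of 0.2, which does not show that they change alike. With each array left out in turn, no pair changed sign.

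The receptor genes also split. GID1A, GID1B and GID1C encode receptors that stand in for each other in much of the plant, and all 3 must be lost before Arabidopsis becomes fully blind to GA. In DT the RNA of GID1A and GID1C rose and that of GID1B fell.

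GID1A, on chromosome 3 from 1430363 to 1432844 with 2 exons, had the largest rise of the receptors. Log2 signals of 4.88, 4.99 and 5.15 in DS stood against 5.83, 5.68 and 5.77 in DT. DS replicate 1 was below the pseudogene level, and every DT array was well above every DS array. The mean rose by 0.75 with a standard error of 0.076, or 1.69-fold (adjusted p = 0.000187 from limma), the 444th highest difference in the table.

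GID1C, on chromosome 5 from 9628990 to 9631291 with 2 exons, was at 4.76, 4.77 and 4.64 in DS and at 4.97, 5.03 and 5.07 in DT. All DS arrays were below the pseudogene level and all DT arrays just above it. The rise was 0.30 with a standard error of 0.054, or 1.23-fold (adjusted p = 0.00381 from limma).

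GID1B, on chromosome 3 from 23289243 to 23291486 with 2 exons, was dim throughout. In biochemical work its protein is the receptor with the tightest hold on GA. Its log2 signal was 4.801, 4.86 and 4.91 in DS and 4.647, 4.619 and 4.642 in DT, all under the pseudogene level. The DT arrays were all below the DS arrays. The mean fell by 0.22 (standard error 0.047), and limma gave an adjusted p of 0.00871.

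In the pairwise test GID1A changed by 0.97 more than GID1B, with a standard error of 0.058, and by 0.45 more than GID1C, with a standard error of 0.131. For GID1B less GID1C the value was -0.52 with a standard error of 0.076. The DT and DS values did not overlap in any of these 3 pairs, and the exact p was 0.1 in each. Here too the share among all pairs of genes was not worked out.

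**Figure D3:**
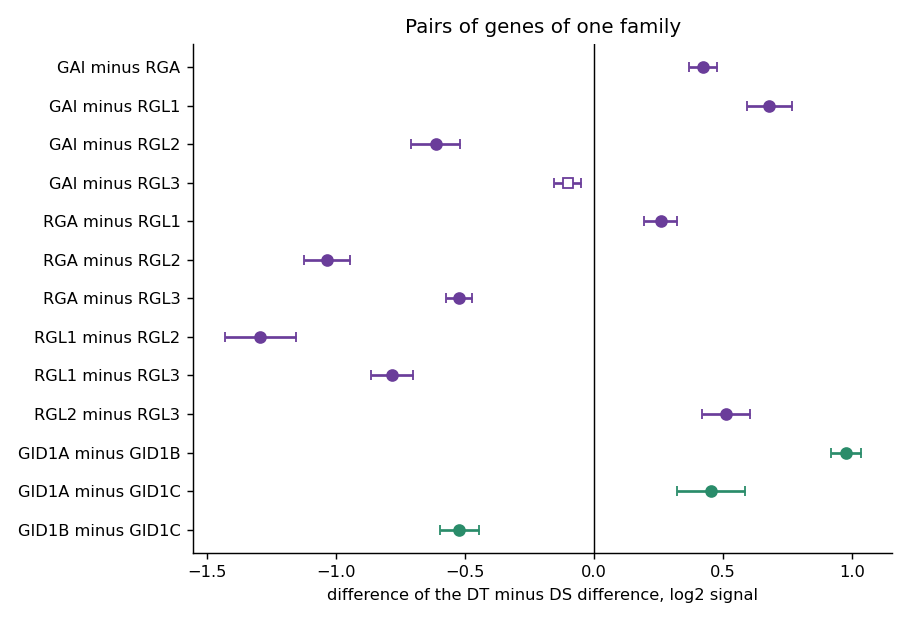
Difference between the changes of 2 genes of one family in log2 signal (horizontal axis), with its standard error over 3 DT and 3 DS arrays; DELLA pairs are purple and receptor pairs green. Filled circles mark pairs whose DT and DS values do not overlap, and the open square, GAI minus RGL3, marks the pair whose values do.

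SLY1, the F-box gene, fell. It lies on chromosome 4 from 12563279 to 12564482 and has 1 exon. Its log2 signal was 5.49, 5.34 and 5.35 in DS and 5.01, 5.12 and 5.13 in DT. Every DT array was below every DS array and all 6 were above the pseudogene level. SLY1 fell by 0.31 (standard error 0.060), so that DS was 1.24-fold above DT, and limma gave an adjusted p of 0.00562.

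Members of each family resemble one another, which matters on an array because probes of one gene may bind RNA of another. Coding sequences were 82.4% identical between GAI and RGA and 83.8% between GID1A and GID1C, the closest pairs, and 67.2% to 77.4% in the other DELLA pairs. Of all 25-base words in the exons, 14 were shared by GAI and RGA, 14 by GID1A and GID1C and 2 by RGL1 and RGL3, which is under 1% of the words of each gene. RGL2, GID1B and SLY1 shared no word of that length with the exons of any other gene. Only exact words were searched. In GAI and RGA and in GID1A and GID1C, some shared words lie outside the longest shared coding stretch. That stretch is shown for each of the 3 pairs that share words, since every 25-base word within it occurs in both genes. All letters of the 3 stretches are in capitals since all match. The first has 30 bases and lies at chr1:5150313-5150342 in GAI and chr2:256260-256289 in RGA, the second has 35 bases and lies at chr3:1432141-1432175 in GID1A and chr5:9630597-9630631 in GID1C, and the third has 26 bases and lies at chr1:24748543-24748568 in RGL1 and chr5:5765631-5765656 in RGL3 (RefSeq TAIR10.1, read on the strand of the gene).
GAI and RGA: TTTCCGGTTAACCGGAATTGGTCCACCGGC
GID1A and GID1C: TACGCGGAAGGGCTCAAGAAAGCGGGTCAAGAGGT
RGL1 and RGL3: GTTCATTACAATCCTTCTGATCTCTC
Which probes the array used for each gene is not given in the sources used here, and the part of shared probe signal in the values of these pairs was not tested.

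The 250 bases before the annotated start of each gene were searched on both strands for the letters ACGTG, the core of the ABA-responsive element, for CACGTG, the G-box, which contains ACGTG, and for CATGCA, the core of the RY element of seed genes. ACGTG stood in 5 of the 9 windows, against 22.1% of 30078 windows of the same kind. The genes were RGL3, GID1A and GID1C, which rose, and GID1B and SLY1, which fell. CATGCA stood in GAI and GID1C, against 8.57% of all windows, and CACGTG in 0 of the 9, against 6.11%. A match in these letters is a description and not a binding site. The windows of RGL2 and GID1A, the genes with the largest rises, and of GID1B, the receptor that fell, are shown to set the changes beside the sequence, in lower case with the searched letters in capitals. They are chr3:821653-821902 on the minus strand for RGL2, chr3:1430113-1430362 on the plus strand for GID1A and chr3:23288993-23289242 on the plus strand for GID1B (RefSeq TAIR10.1), and none overlaps an exon of another gene.
RGL2: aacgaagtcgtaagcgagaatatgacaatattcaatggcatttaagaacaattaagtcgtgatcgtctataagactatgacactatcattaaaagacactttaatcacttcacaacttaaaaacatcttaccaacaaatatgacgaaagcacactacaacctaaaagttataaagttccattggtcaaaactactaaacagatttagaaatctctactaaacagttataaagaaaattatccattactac
GID1A: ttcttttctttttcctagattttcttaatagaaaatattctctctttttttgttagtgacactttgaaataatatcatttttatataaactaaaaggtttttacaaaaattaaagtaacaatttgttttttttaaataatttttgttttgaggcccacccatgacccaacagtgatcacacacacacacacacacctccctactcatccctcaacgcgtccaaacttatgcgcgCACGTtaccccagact
GID1B: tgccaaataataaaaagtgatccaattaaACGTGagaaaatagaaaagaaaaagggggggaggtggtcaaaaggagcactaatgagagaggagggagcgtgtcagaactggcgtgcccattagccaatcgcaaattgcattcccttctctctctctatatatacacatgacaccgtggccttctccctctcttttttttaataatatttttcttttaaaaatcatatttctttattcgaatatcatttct
In GID1A the letters read CACGT, the opposite strand of ACGTG, and start 16 bases before the gene. In GID1B they start 221 bases before it. The RGL2 window held none of the 3 words, which says only that these letters are not in these bases.

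Other genes of GA synthesis and signalling were read from lists of the pathway. Of 5 genes for the early steps of GA synthesis, 2 rose and 0 fell, with 3 higher and 0 lower at an unadjusted limma p of at most 0.05 and 1 and 0 in a linear model without moderation. KAO2 rose by 0.30, with an adjusted limma p of 0.00315, and GA3, the ent-kaurene oxidase, by 0.18, with an adjusted limma p of 0.0307 that ran from 0.0655 to 0.112 without DS replicate 1, DS replicate 2, DT replicate 2 or DT replicate 3. The median of the list was 0.12, and 40.0% of it passed, against 29.9% of all genes. KAO2 and GA3 act before the oxidases that finish the hormone. The early synthesis genes that did not pass were below the pseudogene level on all 6 arrays, so a change in their RNA may not have been detectable. Of 9 GA 20-oxidases and 3-oxidases, 1 rose and 2 fell, with a median of -0.045, and the 33.3% that passed is near the 29.9% of all genes. GA3OX1, a 3-oxidase that makes the active hormone, fell by 0.71, from 5.38 ± 0.09 to 4.67 ± 0.08 (SD, n = 3), while GA3OX2 fell by 1.52 and GA20OX3 rose by 0.79. GA3OX1 was below the pseudogene level on all 3 DT arrays and GA20OX3 on all 3 DS arrays. The oxidases that did not pass were below that level on all 6 arrays, with the same limit. Of 9 genes that inactivate GA, the 2-oxidases and methyltransferases, 0 passed in limma and 0 in the linear model without moderation, and 1 was lower and 0 higher at an unadjusted limma p of at most 0.05. All 9 were below the pseudogene level on all 6 arrays, so a change in their RNA may not have been detectable. Their differences lay between -0.129 and 0.135, with a median of 0.03.

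Genes for the proteins that work with SLY1 were read next. CUL1, the scaffold of the SCF ligase, rose by 0.57, from 5.62 ± 0.06 to 6.19 ± 0.06 (SD, n = 3; adjusted p = 0.000124 from limma), and ASK2, an adaptor that links the F-box protein to it, rose by 0.32. The genes of both enzymes that attach sugars to DELLA proteins rose as well. SPY, an O-fucosyltransferase, rose by 0.46, from 5.04 ± 0.04 to 5.51 ± 0.06 (SD, n = 3; adjusted p = 0.000272 from limma), and SEC, an O-GlcNAc transferase, by 0.21. SKP1 and RBX1, further subunits, and SNE, the sister gene of SLY1, did not pass, at 0.10, -0.08 and -0.10. SEC lost its call without DS replicate 1, DS replicate 2 or DT replicate 1 (adjusted p = 0.0628 to 0.0852 from limma). ASK2 lost its call in the linear model without moderation (adjusted p = 0.0753 from that model). Of the 7 genes of this list 4 rose and 0 fell, with a median of 0.21. The 57.1% that passed stands against 29.9% of all genes and is near the 59.2% of those above the pseudogene level. The counts were the same at an unadjusted limma p of at most 0.05 and 2 and 0 in the linear model without moderation.

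Of 11 genes known as early or direct DELLA targets in Arabidopsis seedlings, 5 rose and 1 fell, with a median of 0.17, and the 54.5% that passed stands against 29.9% of all genes and 59.2% of those above the pseudogene level. LBD40, a LOB domain gene, rose by 1.002, from 5.07 ± 0.18 to 6.07 ± 0.17 (SD, n = 3; adjusted p = 0.000315 from limma), which met the filter of a log2 difference of 1. The rise was 0.91 without DS replicate 2, 0.94 without DT replicate 2 and 0.96 without DT replicate 3. XERICO, a RING protein gene that raises abscisic acid, rose by 0.88, from 4.955 ± 0.035 to 5.838 ± 0.034 (SD, n = 3; adjusted p = 7.02e-06 from limma). BOI, a RING protein that works with DELLA proteins, rose by 0.55, SCL3, a GRAS protein that opposes DELLA proteins, by 0.255 and IQD22, which was below the pseudogene level on all DS arrays, by 0.18. Among the 3 DS arrays, SCL3 was above the pseudogene level on only 1, and XERICO and LBD40 on 2. SCL3 lost its call without DS replicate 2 (adjusted p = 0.0531 from limma) and in the linear model without moderation (adjusted p = 0.0527 from that model). IQD22 lost its call without DS replicate 2, DS replicate 3, DT replicate 1 or DT replicate 3 (adjusted p = 0.0549 to 0.0901 from limma). The gene that fell was GA3OX1, and GID1A and GID1B, which are also known targets and are described above, moved in opposite directions.

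Of 19 genes whose proteins bind DELLA proteins, 5 rose and 6 fell. The 57.9% of this list that passed stands against 29.9% of all genes and is near the 59.2% of those above the pseudogene level. The median was -0.07, and it turned to 0.02 after a repeated quantile normalization. The largest rises were those of EBP, an ethylene response factor also called RAP2.3, by 1.37, of the abscisic acid response gene ABI5 by 0.89, from 4.85 ± 0.06 to 5.74 ± 0.03 (SD, n = 3), and of IDD1, a zinc finger gene, by 0.66. ABI3, a seed master regulator, rose by 0.43. JAZ1, a repressor of jasmonate responses, fell by 0.94, from 5.77 ± 0.13 to 4.83 ± 0.10 (SD, n = 3; adjusted p = 7.39e-05 from limma). JAZ1 was below the pseudogene level on all 3 DT arrays and ABI5 on all 3 DS arrays. BRG3, a RING protein related to BOI, fell by 0.50, and SPT, a bHLH repressor of germination, fell by 0.45. The light-labile PIF factors split, since PIL5, which blocks germination in the dark, rose by 0.30 (adjusted p = 0.00246 from limma), while PIF3 fell by 0.41 and PIL6 fell by 0.27, to a level below that of pseudogenes on all 3 DT arrays. PIF4 did not pass, at 0.027, and was below the pseudogene level on all 6 arrays. Of the 3 GAMYB genes, 1 rose and 0 fell, with the same counts at an unadjusted limma p of at most 0.05 and 0 of 3 in the linear model without moderation. Their median was 0.12, and the 33.3% that passed is near the 29.9% of all genes. MYB33 rose by 0.24 and lost its call without DS replicate 2, DT replicate 2 or DT replicate 3 (adjusted p = 0.0559 to 0.0777 from limma).

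Other members of the GRAS family, to which DELLA proteins belong, moved both ways. Of 25, 7 rose and 7 fell, with a median of 0.07. The 56.0% that passed stands against 29.9% of all genes and 59.2% of those above the pseudogene level. The list holds genes on both sides of that level. SCL14, which works in detoxification responses, rose by 0.95, from 5.07 ± 0.03 to 6.015 ± 0.004 (SD, n = 3; adjusted p = 3.62e-06 from limma), SCL21 by 0.41 and SCL5 by 0.35. HAM3, which maintains meristems, fell by 0.32, SCL28 fell by 0.31 and SCL4 fell by 0.26. These 3 were below the pseudogene level on all DT arrays, and SCL21 was on all DS arrays. At an unadjusted limma p of at most 0.05, 9 were higher and 9 lower. Of the genes that passed, SCL8 and SCL23 each lost their call in 8 of 12 alternative runs and SCL7 in 7. SCL13 and SCL3 each lost it in 2 and HAM2 in 1.

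**Figure D4:**
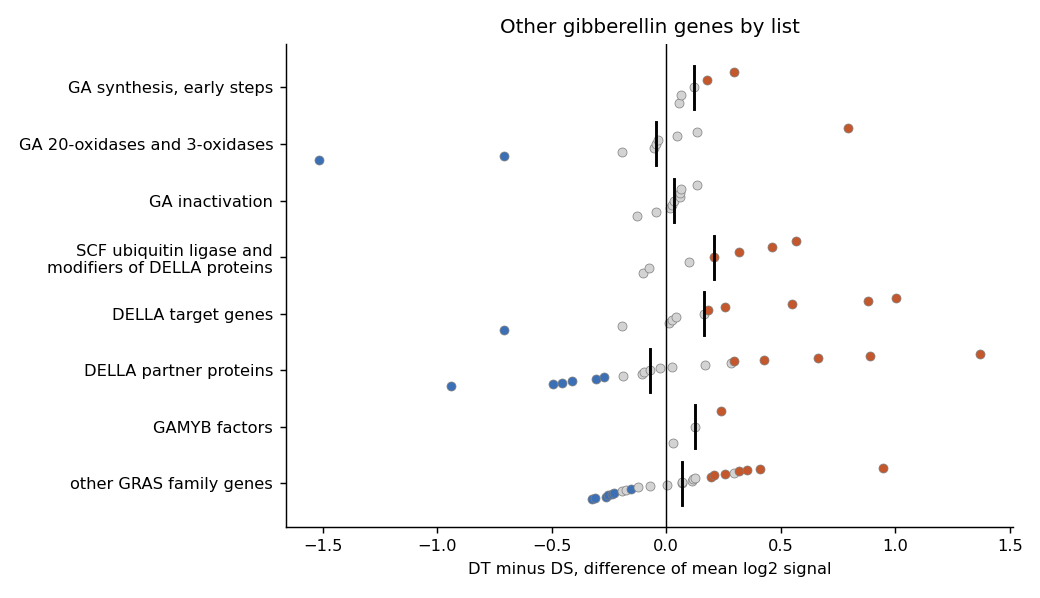
Difference between the DT and DS means in log2 signal (horizontal axis) for each gene of 8 lists, with genes that rose in orange, genes that fell in blue and genes that did not pass in grey; the black bar is the median of a list. GA3OX1 and GA20OX2 stand in both the oxidase and the target list, and SCL3 in both the target and the GRAS list.

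Since RGL2 had the largest change, the genes most like it over the 6 arrays were looked up among the 10640 other genes with a mean above the pseudogene level. They were TPP2 (AT4G20850), AT3G13340 and AT3G14750, with Pearson correlations of 0.99946, 0.99936 and 0.99909. The TPP2 signals were 5.52, 5.54 and 5.56 in DS, against 5.92, 6.17 and 6.13 in DT. Like RGL2, it was lowest of the DT arrays on replicate 1. With 2 groups of 3 arrays any gene that separates the groups correlates highly, and 206 genes exceeded 0.99, so the order among them is a description.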

How the data were processed

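RNA from 3 DS and 3 DT replicates was hybridized to 1 SNPtile array each. Gene annotation followed TAIR9. The authors deposited a single log2 value for each gene on each array. The study states that its data were quantile normalized but not whether this was done on probes or on genes. The array medians of the deposited gene values still differed, from 4.72 to 4.78. Probe summary and background treatment are not given in the sources used here. The deposited log2 values of all 30509 genes were fitted with limma (version 3.58.1, run under R 4.3.3) without covariates; the prior degrees of freedom were 3.71, with Benjamini-Hochberg adjustment over all genes. In a simulation of all 30509 genes built on their observed levels and spread, 132 of 200 genes changed by 0.5 and 192 of 200 changed by 1 were recovered, with 2 and 11 others called. Only those 200 genes were changed, whereas 29.9% of genes passed in the data. The adjustment depends on that share, so these counts do not give the recovery or the false calls of the real fit. Samples were grouped by their labels. The number of arrays limits the precision.

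Sequence was read from RefSeq TAIR10.1 with Python 3.11.15 and Biopython 1.88; 30078 of the loci have a record there. A planned comparison of the proteins was replaced by one of coding sequences, chosen after the values were seen. The members and the gene lists were chosen with earlier results of these data known, including a report on the whole series. All 9 genes are named, with up to 3 rises and 3 falls of each list, any listed gene past the 2-fold filter and the 3 genes most like the gene of largest change. SKP1, RBX1, SNE, PIL5, PIF3, PIF4, PIL6, ABI3, SCL3, IQD22, SEC, SCL7, SCL8, SCL13, SCL23 and HAM2 were named in addition after their values were seen. The alternatives were 2 other scalings, 2 variance models, leaving out dim genes, a replicate block and leaving out each of the 6 arrays.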

Additional observations from a re-analysis of the deposited data

How the results depend on the processing

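Of the 9 genes, 8 kept their direction and their side of the threshold under every alternative run (GID1B was not tested with dim genes left out, since it is one of them). The rise of GAI, 0.297, had an adjusted p of 0.0601 without moderation of the variance. The count of genes meeting the 2-fold filter, 0, became 1 after a repeated quantile normalization and was 0 to 1 with each array left out, the 1 being RGL2 without DT replicate 1. With the replicate number as a block in the fit, GAI rose by 0.297 (adjusted p = 0.012 from limma) and RGL2 by 0.911 (adjusted p = 0.00086 from limma), and 5 of the 9 genes rose and 3 fell, as without it; the deviations of same-numbered arrays correlated at 0.061, -0.01 and 0.104, and 3 of the 6 arrays correlated best with their own number, so the numbers are not taken to pair the samples.

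Among the lists, the early synthesis genes that rose numbered 1 with the replicate block and 1 to 2 with each array left out (2 in the report). After either scaling they numbered 3. The oxidases that rose were 2 after either scaling. DELLA targets that rose were 3 to 5 with each array left out, 3 without DS replicate 2, and those that fell 2 with the replicate block and 1 to 2 with each array left out. After either scaling 6 targets rose. DELLA partner genes that rose were 7 after either scaling (5 in the report), and those that fell stayed at 6. The GAMYB genes that rose were 2 after quantile normalization and 0 to 1 with each array left out, with 0 without DS replicate 2, DT replicate 2 or DT replicate 3. GRAS genes that rose were 10 after centring and 8 after quantile normalization (7 in the report). Those that fell were 5 after centring and 4 after quantile normalization (7 in the report). With each array left out 4 to 7 GRAS genes rose, 4 without DS replicate 2. SCF list genes that fell were 0 to 1, with 1 without DS replicate 3, and those that rose were 5 after centring. With the replicate block the SCF list had 3 rises instead of 4, since SEC had an adjusted p of 0.0561, and GA3 had 0.0601 (limma); without moderation these were 0.0671 and 0.0515. Of the 46 listed genes that passed, markers included, 34 passed under every alternative run and 0 changed direction; the causes were not tested. The planned comparison of protein sequences was not run. Signal below the pseudogene level limits GID1B on all arrays, RGL1 in DT, GID1C in DS, all 9 inactivation genes, and the listed genes named as below it in the report.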
